A study of Mus musculus with 12 samples.

Results

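Bidirectional promoters are the stretches of DNA between protein-coding genes that lie head to head on opposite strands and are read outward from a shared start region. They were chosen from the GENCODE M21 annotation of the mouse genome (GRCm38) alone, with no measured value: the annotated 5′ ends of the genes lay at most 1000 bp apart and the genes did not overlap. The rule found 754 pairs at 732 separate loci, with 1487 of 21938 protein-coding genes (6.78%), and 21 genes took part in more than 1 pair. The region measured ran from one 5′ end to the other plus 1 kb on each side, 2002 to 2988 bp long with a median of 2130 bp. The 20451 protein-coding promoters in no such pair, each with 1 kb on either side of the 5′ end, served as controls.

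The mark was H3K4me3, profiled by CUT&Tag, in which an antibody tethers a transposase that cuts and tags the DNA beside a histone modification. Wild-type C57BL/6J mouse embryos gave tissue from the medial (MGE), lateral (LGE) and caudal (CGE) ganglionic eminence, the ventral forebrain zones where inhibitory neurons and striatal neurons are born, and from the cortex (CTX). No group carried a treatment or an engineered allele. The study's text gives the CUT&Tag tissue as E12.5, while its methods and the labels' protocol name both E12.5 and E14.5. That protocol also has equal numbers of nuclei of the 4 tissues pooled before the reaction and does not say how libraries were then assigned to a tissue, so the tissue names are used as the labels give them. Where 4 values stand together without names, they are those of the MGE, LGE, CGE and CTX lists in this order.

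The 12 libraries (4 CGE, 3 CTX, 3 MGE and 2 LGE, of 2 biological replicates each) had been merged within a tissue before peaks were called. There was thus 1 peak list per tissue and no replicate spread, and no test between tissues was possible. Intervals given below are 95% intervals (Wilson for a share, Newcombe for a difference of shares, order statistics for a median). They cover counting error only, because promoters of 1 list are not replicates of a tissue. The lists held 25339, 17284, 17752 and 21442 peaks, and carry no read counts. By the depths stated in the study's methods, the MGE libraries were the shallowest in total and the CGE libraries the deepest. Among fixed tissue markers, the MGE genes Nkx2-1, Lhx6 and Lhx8 had a peak in the 3 eminences and none in the cortex. Nr2f2 was marked in CGE and Tbr1 in CTX, each in that list alone, whereas other cortical markers such as Emx1 were also marked in the 3 eminences, so the lists did not separate the tissues cleanly. Promoters of the microglial markers Aif1, Csf1r and Cx3cr1 had no peak in any list.

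H3K4me3 is laid down by SET1 and MLL family methyltransferases on nucleosomes flanking active or poised start sites, and CpG islands recruit these enzymes through CXXC-domain proteins. A divergent pair places its start sites back to back, often within 1 CpG island, and many such pairs join genes for DNA repair, mitochondria or basic metabolism that most cells need. At an ordinary promoter the mark lies mainly downstream of the start site, on the first nucleosomes of the gene, whereas in a divergent pair the upstream side of one gene is the downstream side of the other.

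The 4 pairs printed here were among those named from textbook examples of shared promoters or for an RNA polymerase II subunit, with 5′ ends at most 250 bp apart. They show how different the shared stretch can be. Each is the plus strand of GRCm38 (NCBI p6 release) from 24 bases beyond one 5′ end to 24 bases beyond the other. Capitals mark matches, on either strand, to CCAAT (bound by NF-Y), GGGCGG (SP factors) or CCGGAAG (ETS factors). The first gene of each name is on the minus strand. The intervals are chr1:82586825-82586945 for Col4a4/Col4a3, chr7:28741796-28742016 for Mrps12/Sars2, chr7:141475108-141475264 for Polr2l/Tspan4 and chr11:101551931-101552173 for Brca1/Nbr1.
Col4a4/Col4a3: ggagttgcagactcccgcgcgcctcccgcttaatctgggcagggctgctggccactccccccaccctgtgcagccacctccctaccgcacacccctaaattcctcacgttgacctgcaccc
Mrps12/Sars2: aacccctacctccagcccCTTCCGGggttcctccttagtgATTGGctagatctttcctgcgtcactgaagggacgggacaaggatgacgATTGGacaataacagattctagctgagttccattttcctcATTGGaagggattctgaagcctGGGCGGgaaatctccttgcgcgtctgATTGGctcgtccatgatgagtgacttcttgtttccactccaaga
Polr2l/Tspan4: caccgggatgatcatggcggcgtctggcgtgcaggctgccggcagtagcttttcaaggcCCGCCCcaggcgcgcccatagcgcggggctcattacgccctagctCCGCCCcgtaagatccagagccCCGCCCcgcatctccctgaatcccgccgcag
Brca1/Nbr1: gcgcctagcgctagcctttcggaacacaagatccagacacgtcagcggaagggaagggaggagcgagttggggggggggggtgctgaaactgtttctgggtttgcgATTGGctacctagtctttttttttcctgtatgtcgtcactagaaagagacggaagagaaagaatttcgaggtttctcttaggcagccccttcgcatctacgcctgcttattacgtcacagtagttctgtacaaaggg

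Col4a4 and Col4a3 encode chains of basement membrane collagen IV, and their 121-base stretch held 6 CpG sites and none of these letters. Polr2l, a small subunit of RNA polymerase II, and Tspan4, a tetraspanin, shared 17 CpG sites in 157 bases and 3 SP matches on the minus strand. In Mrps12/Sars2, which encode a mitochondrial ribosomal protein and the mitochondrial seryl-tRNA synthetase, only 8 CpG sites lay in 221 bases, but 4 CCAAT boxes, all on the minus strand, lay 16, 65, 105 and 153 bp from the 5′ end of Mrps12. Brca1, a homologous recombination factor, and Nbr1, an autophagy receptor, had 13 CpG sites and 1 CCAAT match in 243 bases. Of these 4 pairs the one with the fewest CpG sites had the narrowest H3K4me3 peak, but the one with the most did not have the widest. The counts come from stretches of unequal length, and this is a description of 4 loci only. The CGE peak was 625 bp for Col4a4/Col4a3, 1260 bp for Mrps12/Sars2, 1673 bp for Polr2l/Tspan4 and 1842 bp for Brca1/Nbr1.

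Nearly all bidirectional promoters were marked in every tissue, and far more often than other protein-coding promoters. Of the 754 regions, 696, 698, 700 and 695 held a peak, or 92.3% (90.2 to 94.0), 92.6%, 92.8% and 92.2%. Among controls the shares were 54.3%, 55.02%, 55.3% and 53.9%. Pairs were thus higher by 38.04 points in MGE (35.8 to 39.9) and by 37.6, 37.5 and 38.3 points in the other lists. Over all protein-coding promoters, with 1 kb on either side of the 5′ end, the background was 56.8%, 57.6%, 57.9% and 56.5%.

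The size of that difference depended on CpG content. A promoter was called CpG-rich when 300 bp of its sequence had at least 55% GC and a CpG observed/expected ratio of at least 0.65. These 300 bp were centred between the ends of a pair, but ran from 250 bp before to 50 bp after a control's 5′ end. Pairs and controls were thus not scored at the same positions. Of pairs, 70.7% were CpG-rich, against 31.2% of controls. Within the CpG-rich class, pairs were marked in 96.1%, 96.1%, 96.1% and 95.7%, and controls in 93.3%, 94.3%, 94.9% and 93.0%. The MGE difference was 2.73 points (0.641 to 4.23) and the CTX difference 2.66, while the LGE (1.72, -0.36 to 3.19) and CGE (1.18, -0.89 to 2.65) intervals included 0. Outside that class the gap was wide: 83.3% of 221 pairs against 36.5% of 14067 controls had a peak in MGE, a difference of 46.7 points (41.2 to 51.1). In CGE these shares were 85.1% and 37.4%.

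**Figure D1:**
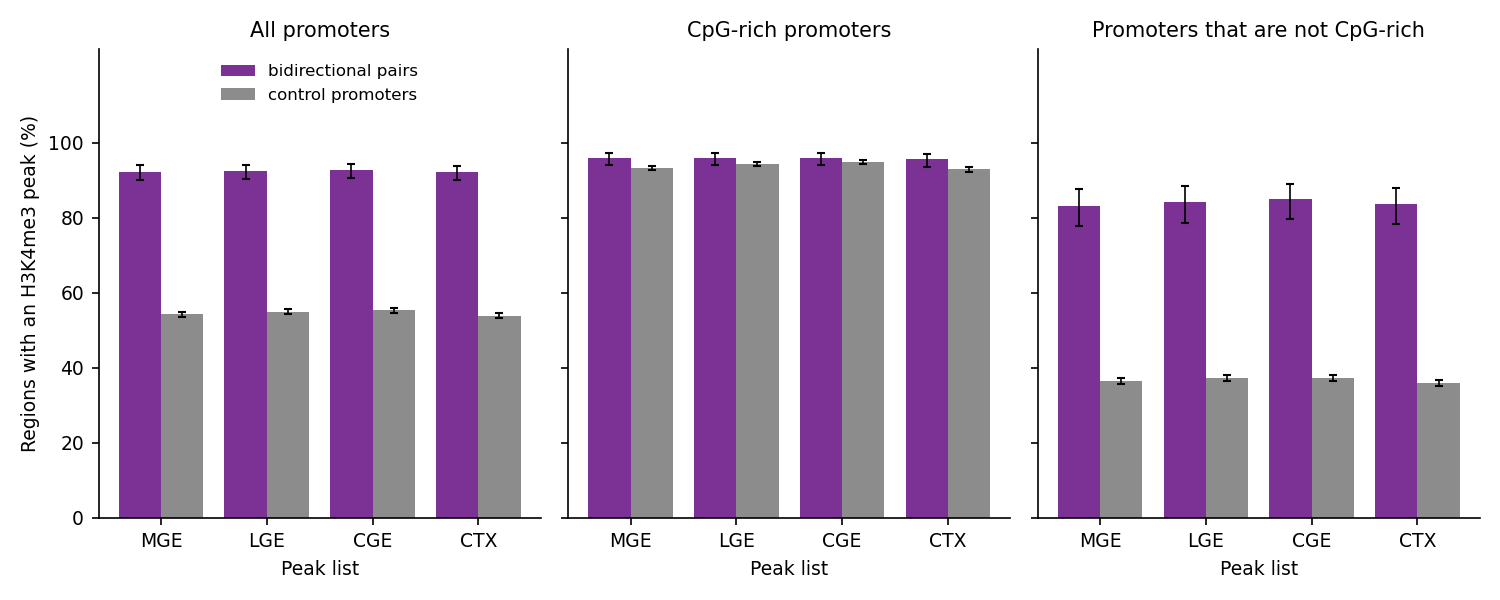
Share of regions with an H3K4me3 peak (%, y axis) in each of the 4 peak lists (x axis) for bidirectional pairs (purple) and control promoters (grey), over all promoters, CpG-rich ones and the rest, with 95% Wilson intervals. The bars of pairs and controls nearly meet in the CpG-rich class (96.1% and 93.3% in MGE) and stand apart in the other class (83.3% and 36.5%).

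The control set was mixed. Its 873 head-to-head genes whose 5′ parts overlap, which the rule leaves out, were marked almost as often as the pairs, at 91.4% in MGE and 91.2% in CTX. Hspd1/Hspe1, Surf1/Surf2 and Col4a1/Col4a2, classic divergent pairs, fell here because their annotated transcripts overlap by 112, 164 and 22 bp. Another 1686 controls had some annotated gene starting on the other strand within 1 kb and were marked in 81.7% in MGE. The 17892 controls with no such neighbour were marked in 49.9%. The controls also included 1478 olfactory, vomeronasal and trace amine receptor genes, of which 2, 0, 1 and 2 had a peak. Without those receptors the pairs were still 33.8 points higher in MGE.

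A pair was as a rule marked in all tissues or in none. Peaks in all 4 lists were found at 692 pairs (91.8%), against 51.9% of controls and a background of 54.6% of all protein-coding promoters. No list had a peak at 53 pairs (7.03%) and 42.8% of controls, which left 9 pairs with a peak in 1 to 3 lists. Of the promoters marked in any list, 98.7% of pairs and 90.6% of controls were marked in all 4, a difference of 8.09 points (6.84 to 8.90). In the CpG-rich class this was 99.4% against 96.0%.

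The 9 pairs marked in some lists only had mostly narrow peaks with low scores. Col4a4/Col4a3 had no MGE peak, and its peaks elsewhere were 668, 625 and 195 bp wide, in LGE, CGE and CTX. Tssk3/Fam229a, with a testis kinase gene, had peaks of 512, 739 and 237 bp in the same 3 lists. Odf3l1/Cspg4, with the proteoglycan NG2 of pericytes and oligodendrocyte precursors, had 478, 355 and 271 bp. These 3 pairs missed the MGE list alone, and their −log10 q values elsewhere were at most 5.07, where marked pairs had medians of 109 (LGE) and 241 (CGE).

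Nup62cl/Pih1h3b and Lrrc74b/P2rx6 missed CTX alone. The former had peaks of 390, 1427 and 1546 bp in the MGE, LGE and CGE lists, and the latter, with a purinergic receptor gene, had 231, 298 and 950 bp. Kirrel2/Nphs1, neighbouring nephrin-family genes of the kidney filter, were marked in MGE (162 bp) and CGE (956 bp). Il17rb/Chdh had peaks of 765 and 532 bp in the LGE and CGE lists. A single list held a peak at Lypd4/Dmrtc2 (MGE, 143 bp) and at Nisch/Sema3g (CGE, 394 bp). With 1 merged list per tissue, whether such a peak would recur in a second sample cannot be told.

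Where a promoter was marked, the peak over a pair was somewhat wider than over a control. The median of the widest peak was 1092 bp (1056 to 1128) at pairs and 953 bp (942 to 962) at controls in MGE. The medians were 1494 against 1300 bp for LGE, 1568 against 1385 bp for CGE and 1141 against 987 bp for CTX. The share of marked pairs above the control median was 66.4%, 69.0%, 68.9% and 70.6%. All marked protein-coding promoters gave 51.7%, 52.0%, 52.0% and 52.2%. In the CpG-rich class the medians were closer, 1093 against 1050 bp for MGE and 1570 against 1491 bp for CGE, and 54.7%, 58.2%, 59.6% and 57.1% of pairs lay above the control median.

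Cover followed the same order. Peaks covered a median of 49.9%, 67.2%, 70.6% and 52.7% of the pair region and 46.0%, 57.5%, 60.5% and 47.6% of the control window. Covered bases were 1094, 1464, 1536 and 1140 at pairs and 920, 1150, 1210 and 952 at controls. More of the region than the control median was covered at 61.9%, 73.8%, 75.9% and 64.2% of marked pairs, against 52.2%, 53.0%, 53.4% and 52.4% of all marked protein-coding promoters. This direction did not hold throughout the CpG-rich class, where the share was 48.0% (43.8 to 52.4) for MGE and 50% for CTX but 64.3% for LGE and 66.02% for CGE.

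The peak caller's −log10 q also stood higher at pairs, and its fold did so in part. The median of the highest −log10 q was 39.0, 109, 241 and 44.4 at pairs and 17.7, 61.4, 130 and 21.2 at controls. The median of the highest fold over the caller's background was 7.504, 6.38, 6.84 and 7.45 at pairs and 6.27, 6.21, 6.61 and 6.46 at controls, so the gap was larger for MGE and CTX. Outside the CpG-rich class the fold was lower at pairs than at controls for LGE (6.14 against 6.35) and CGE (6.402 against 6.78). Broad peaks gave no single direction. Peaks of at least 2000 bp lay at 15.3% of marked pairs and 14.0% of marked controls in LGE, and at 20.1% and 17.2% in CGE, but at 2.73% and 4.00% in MGE. Peaks of at least 3000 bp lay at 0, 11, 13 and 1 pairs, or 1.58% for LGE and 1.86% for CGE, where the control shares were 0.306%, 2.42%, 3.28% and 0.436%.

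Peaks were wider in LGE and CGE than in MGE and CTX at almost every pair. Of the 692 pairs with a peak in all lists, 691 had a wider peak in CGE than in MGE, 690 a wider one in LGE than in MGE and 584 a wider one in CGE than in LGE. The CTX peak was wider than the LGE peak at 13 pairs and wider than the CGE peak at 12, but wider than the MGE peak at 470, so the order of MGE and CTX was less regular. The median ratio of LGE to MGE width was 1.32 at pairs and 1.31 at controls, and that of CGE to MGE width was 1.40 at both, so controls showed the same order. Over all peaks of a list the median width was 563, 1168, 1240 and 701 bp. Since each tissue was called once, at unequal depths and with settings not given in full, biological and technical sources of this order cannot be told apart.

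One peak usually spanned both 5′ ends. This held for 642 of 696 marked pairs in MGE (92.2%, 90.0 to 94.0) and for 93.6%, 94.1% and 93.5% in the other lists. The 5′ ends lay a median of 129.5 bp apart (interquartile range 67 to 240), and the distance classes of up to 100 bp, over 100 to 250 bp, over 250 to 500 bp and over 500 to 1000 bp held 312, 262, 110 and 70 pairs. In MGE a single peak took in both ends at 99.3% of marked pairs in the closest class and at 50% (37.9 to 62.1) in the widest. In that widest class the share was 65.6% for LGE, 65.1% for CGE and 55% for CTX. A peak over one end only was seen at 14 pairs (minus-strand gene) and 9 pairs (plus-strand gene) of the 62 marked there in MGE.

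**Figure D2:**
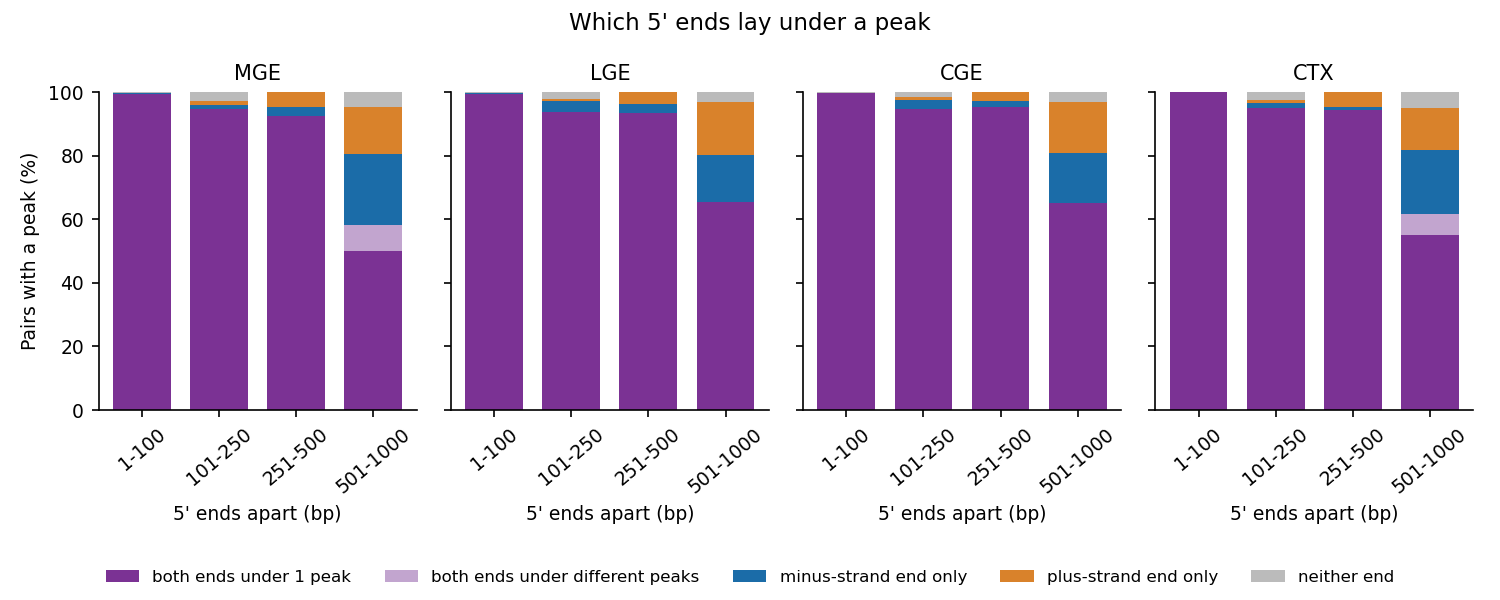
Share of marked pairs (%, y axis) by which 5′ ends lay under a peak (colours), in 4 classes of distance between the 5′ ends (bp, x axis), 1 panel per peak list. A single peak over both ends filled 99.3% of the closest class (up to 100 bp) and 50% of the widest (over 500 bp) in MGE.

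Pairs with a separate peak over each end were few: 5 in MGE, 4 in CTX and 0 in LGE and CGE. All 5 MGE pairs lay in the widest distance class. They included Urod/Hectd3 (904 bp apart), Fhod1/Slc9a5 (890 bp), P3h4/Fkbp10 (861 bp) and Zfyve26/Rad51b (978 bp), named after their values were seen. At Fhod1/Slc9a5, a formin and a sodium/proton exchanger, the widest peak was 1146, 3041, 3136 and 1245 bp, but 2612 bp in MGE and 2868 bp in CTX once peaks less than 1 kb apart were joined. At Urod/Hectd3, a haem synthesis enzyme and a ubiquitin ligase, it was 734, 2527, 2527 and 784 bp. At both of these and at Zfyve26/Rad51b the separate peaks of MGE and CTX faced a single peak over both ends in LGE and CGE, whereas P3h4/Fkbp10 had only one end under a peak there.

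Median width was greater the farther apart the ends lay. From the closest to the widest class the MGE median was 1022, 1099, 1169 and 1237 bp and the CTX median 1106, 1150, 1199 and 1325 bp. The longer LGE peaks went from 1384 through 1511 and 1603 to 1821 bp, and the CGE peaks from 1472 through 1600 and 1670 to 1925 bp. The intervals of neighbouring classes overlapped in all lists, whereas those of the closest and the widest class did not overlap in any list. The share of CpG-rich pairs moved the other way, from 86.9% through 72.9% and 54.6% to 15.7%. It was scored in the 300 bp centred between the ends, which hold neither 5′ end when the ends lie more than 300 bp apart. The part of this placement in the fall was not tested. The share marked did not fall in step: in MGE it was 93.3%, 91.2%, 94.5% and 88.6%.

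**Figure D3:**
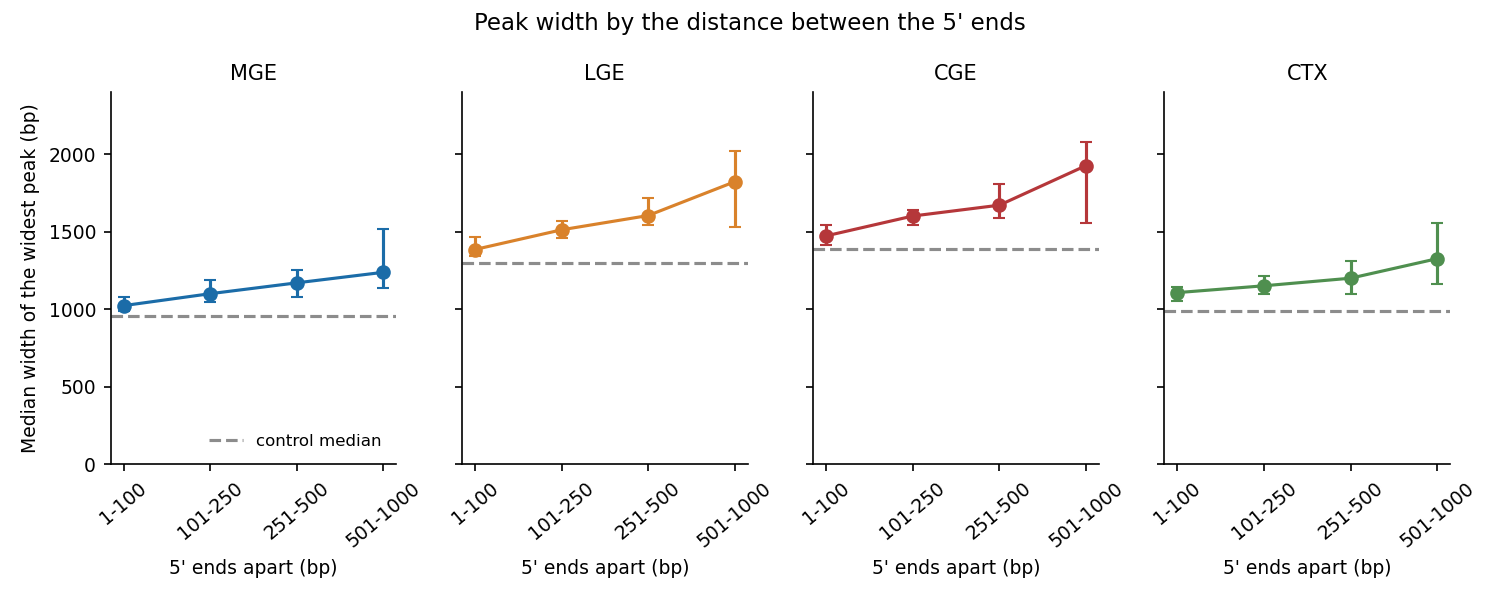
Median width of the widest peak at marked pairs (bp, y axis from 0) by distance between the 5′ ends (bp, x axis) with 95% intervals, 1 panel per peak list, and the median of marked controls as a dashed line. Every class lay above the control median, and the step from closest to widest class was from 1022 to 1237 bp in MGE and from 1472 to 1925 bp in CGE.

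The clearest difference from other promoters was in where the mark lay. At control genes the peak ran into the gene: of the first 1000 bp downstream of the 5′ end a median of 661 bp was covered in MGE, of the 1000 bp upstream 211 bp, and 86.0% of controls had more downstream than upstream. At genes of pairs the downstream cover was shorter, 453 bp in MGE (440 to 468) and 453, 652, 698.5 and 481.5 bp over the lists. The control values were 661, 899, 945 and 688 bp. The upstream cover, which takes in the partner gene, was 600.5, 803.5, 850 and 636 bp at pairs, against 211, 294, 329 and 220 bp at controls.

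The shorter downstream cover was seen in both classes of CpG content. In CpG-rich promoters the downstream cover in MGE was 468.5 bp (453 to 483) at pairs and 697 bp (686 to 709) at controls, and in CGE 716.5 and 985 bp. Outside the class it was 399 and 619 bp in MGE. At 500 bp into the gene a peak lay over 42.3% of genes of marked pairs and 70.3% of marked controls in MGE, and 78.2% and 91.2% in CGE. At 1000 bp into the gene the shares were 6.11% and 25.8% in MGE and 17.4% and 49.9% in CGE. The 5′ end itself was under a peak more often in pairs, at 95.7% against 86.0% in MGE and 96.6% against 91.0% in CGE. An annotated 5′ end is the outermost start of a gene, so a gene that uses an inner start shows its mark shifted downstream in this measure. Whether this is as frequent in pairs as in controls, and its part in the shorter downstream cover, was not tested.

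**Figure D4:**
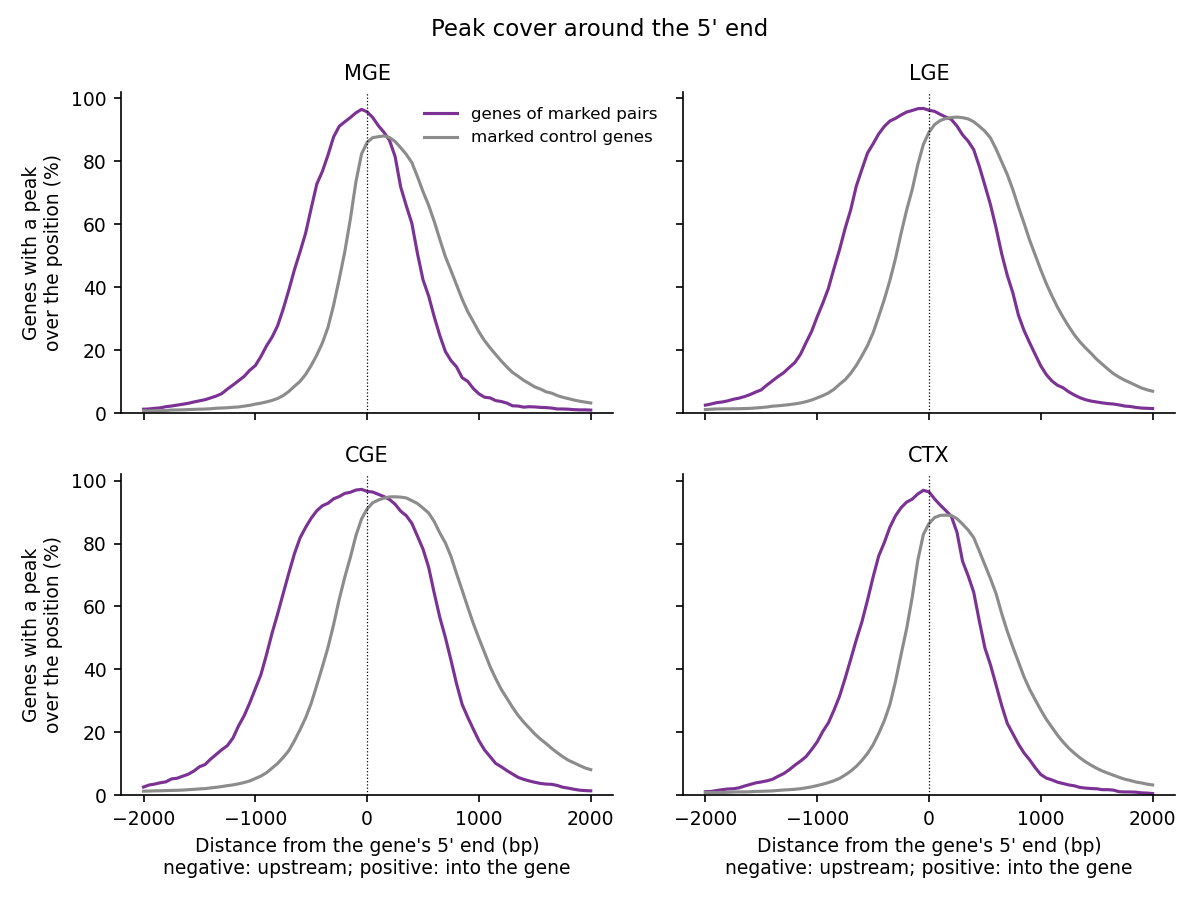
Share of genes with a peak over each position (%, y axis) by distance from the 5′ end (bp, x axis, positive into the gene), for both genes of marked pairs (purple) and marked controls (grey), 1 panel per peak list. The pair curve is centred near or just upstream of the 5′ end and the control curve downstream, with 42.3% and 70.3% covered at 500 bp into the gene in MGE.

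Over the pairs as a set, neither strand had more of the mark. Strand is only a label of chromosome direction, so this does not show balance within single pairs. Downstream cover in MGE was 450.5 bp for the minus-strand gene and 456 bp for the plus-strand gene, and the plus-strand gene had more at 49.3% of pairs. In the other lists that share was 48.8% to 50.1%. The middle of the widest peak lay a median of 5.75 bp to the minus-strand side of the midpoint in MGE (-5.75 bp, -28 to 11), and the other lists gave 4.25, 3.25 and -6 bp. Single pairs were often lopsided: the interquartile range in MGE was -142.5 to 142.2 bp, and 51.6% of marked pairs lay within 150 bp of the midpoint. At controls the peak's middle lay 235, 316.5, 326 and 243 bp downstream of the 5′ end. The DNA between the ends was fully covered at 92.2% of marked pairs in MGE and 94.1% in CGE.

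The sequences between the ends differed from other promoters in more than CpG content. Median GC was 62.3% at pairs and 54.3% at controls, and the CpG observed/expected ratio was 0.849 and 0.482. Each motif was searched as letters on both strands, in the 300 bp centred between the ends of a pair and in 250 bp before to 50 bp after a control's 5′ end. The ETS letters CCGGAAG occurred in 28.0% of pairs, 9.57% of controls and 10.8% of all protein-coding promoters. The YY1 core AAGATGGC occurred in 8.49%, 2.53% and 2.92%, CCAAT in 45.1%, 38.7% and 39.0%, GGGCGG in 68.0%, 41.1% and 43.0%, and the NRF1 core GCGCATGC in 6.50%, 3.49% and 3.71%. TATAAA, the letters of the TATA box, ran the other way, with 4.38% of pairs, 13.3% of controls and 12.7% of all.

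Within CpG-rich promoters some of these differences went and others stayed. CCGGAAG was found in 33.2% of pairs and 17.6% of controls (15.6 points, 11.7 to 19.8) and AAGATGGC in 10.1% and 4.07%. CCAAT was 6.31 points higher in pairs (2.02 to 10.7) and TATAAA was at 1.50% against 4.29%. GGGCGG differed by -3.15 points (-7.01 to 0.332) and GCGCATGC by 0.363 points (-1.58 to 2.88), both with intervals that include 0. Because the window of a pair is centred between its ends and that of a control lies mostly upstream, the positions compared are not the same.

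Some of these letters went with differences in the mark among the pairs. Of the 211 pairs with CCGGAAG, 96.2% (92.7 to 98.07) were marked in MGE, and of the 543 without it 90.8% (88.07 to 92.95). The peak was narrower with it in MGE, at 1022 bp (961 to 1068) with and 1123 bp (1082 to 1179) without. In the other lists the median was also lower with it, but the intervals overlapped. Of the 64 pairs with AAGATGGC, 98.4% (91.67 to 99.72) were marked in MGE, against 91.7% (89.45 to 93.57) of those without. The 33 pairs with TATAAA were marked in 81.8% in MGE (65.61 to 91.39) and 78.8% in CTX (62.25 to 89.32), against 92.8% of the others in both lists (90.66 to 94.46). In MGE these intervals of the share marked overlapped for CCGGAAG, AAGATGGC and TATAAA, and in CTX those of TATAAA did not. Of the 513 pairs with GGGCGG, 95.1% (92.91 to 96.68) were marked in MGE, against 86.3% (81.39 to 90.08) of the 241 without. For GGGCGG the intervals lay apart in LGE, CGE and CTX too. The pairs were not split by CpG class for this comparison. CpG-rich and other pairs had nearly equal peak widths once marked, 1093 and 1086 bp in MGE and 1570 and 1564 bp in CGE.

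By function, the pairs took in many genes of DNA repair and replication and of mitochondria. Of 143 genes in the repair and replication list, 39 were in pairs (27.3%), as were 51 of 228 mitochondrial genes (22.4%), against 6.78% of all protein-coding genes. Among the 41 pairs with a repair or replication gene, 40 were marked in all 4 lists, where 91.8% of all pairs were. The other one lies in a stretch where the authors' peak numbers skip and is not analysed here. Their widest peaks ran from 538 to 1732 bp in MGE, with a median of 1000 bp, and had a median of 1398 bp in CGE. Controls of the same list were marked in all 4 lists in 94.2%.

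Single repair pairs showed this spread. At Atm/Npat, the DNA damage kinase and a coactivator of histone genes, the peak was 1222, 1598, 1799 and 1112 bp. At Mcm4/Prkdc, a replicative helicase subunit and the catalytic subunit of DNA-PK, it was 1185, 1626, 1639 and 1397 bp. Brca1/Nbr1 had 1430, 1754, 1842 and 1738 bp over the stretch printed above. All 3 thus stood above the median of the list in every tissue.

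All 49 pairs with a mitochondrial gene were marked in all 4 lists, where 91.8% of all pairs and 91.6% of the controls in that list were. The median of the widest peak was 950, 1319, 1350 and 1026 bp. At Mrps12/Sars2, with the 4 CCAAT boxes, it was 632, 1122, 1260 and 807 bp, below that median in each list. Its fold was high all the same, at 12.8 in MGE against a median of 7.504 over marked pairs. Sdhd/Timm8b, a succinate dehydrogenase subunit and an import chaperone, had 1032, 1397, 1478 and 1005 bp, and was named after its values were seen.

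Replication-dependent histone genes gave the opposite picture. Of their 14 pairs, 7 were marked in all 4 lists and 7 in none, and the controls of that list were marked in 24 of 40 cases. Hist1h2ah/Hist1h2bk had peaks of 1231, 1725, 1725 and 1308 bp. Hist1h2ak/Hist1h2bn, Hist1h2an/Hist1h2bp, Hist1h2bq/Hist1h2ao and Hist1h2ap/Hist1h2br, on chromosome 13, had no peak and lay in a single peak-free stretch of 104400 bp with 12 protein-coding 5′ ends. These genes are near-identical copies, and the part of reads that align to several copies was not tested.

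Other lists held few pairs. Ribosomal protein names matched 10 pairs, of which 9 were marked in all lists, with Rps6kb1/Tubd1 among them although Rps6kb1 is a kinase. Rnf151/Rps2 was the one without a peak, and its nearest peak lay 324 bp from the region. Zinc finger genes with a Zfp symbol were in 19 pairs, 18 of them marked throughout. Both counts lie near the 91.8% of all pairs, and controls of these lists were marked throughout in 81.5% and 79.3%. Psme2/Rnf31, a proteasome activator and a ubiquitin ligase, was the single antigen processing pair, with peaks of 1721, 1887, 1925 and 1628 bp.

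Of the forebrain patterning transcription factors only 3 were in pairs (2.78%), and these included the widest peaks of all. Nr2e1, the nuclear receptor Tlx that maintains neural stem cells, shares its promoter with Ostm1, a lysosomal protein. The peak there was 2837, 5518, 5725 and 3123 bp, the widest over any pair in each list. Its fold was low at 3.403 in MGE and 2.28 in CGE, as was its −log10 q of 18.2 in MGE. When the other lists were cut to the size of the LGE list, the shortest, by highest fold, this peak was lost in all of them. The LGE list itself was not cut, so its peak could not be lost. Tshz1/Zadh2, with a zinc finger factor of striatal and olfactory neurons, had 1085, 4264, 4624 and 951 bp. Sox6/1110004F10Rik, with a factor of MGE-derived interneurons, had 1152, 1254, 1393 and 1122 bp and was near the median of pairs in MGE and CTX and below it in LGE and CGE.

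Other wide peaks lay over pairs of varied function. Nlgn2/Tmem256, with a neuroligin of inhibitory synapses, had 1943, 3720, 4721 and 1240 bp. The imprinted pair Peg3/Usp29 had 2660, 2858, 3162 and 2756 bp, of which 1646 bp lay within the measured region in MGE. Hnrnpa2b1/Cbx3, an RNA-binding protein and a heterochromatin protein, had 2476, 2752, 2752 and 2560 bp. Zbtb25/Zbtb1 had 2522, 2832, 2945 and 2606 bp, and Sart3/Iscu had 2054, 2544, 2556 and 2705 bp. In these last 3 pairs and in Peg3/Usp29 the 4 lists differed by less than 1.5 times, whereas in Nlgn2/Tmem256 and Tshz1/Zadh2 the widest list was more than 3 times the narrowest. That contrast shrank when peaks less than 1 kb apart were joined, with 2633 bp in MGE and 3172 bp in CTX at Tshz1/Zadh2 and 2255 bp in CTX at Nlgn2/Tmem256. In lists cut to equal size by highest fold, the peak at Tshz1/Zadh2 was lost in MGE and CGE. The peak at Zbtb25/Zbtb1 was lost in MGE and CTX and that at Hnrnpa2b1/Cbx3 in CTX, while Nlgn2/Tmem256 kept its widths.

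**Figure D5:**
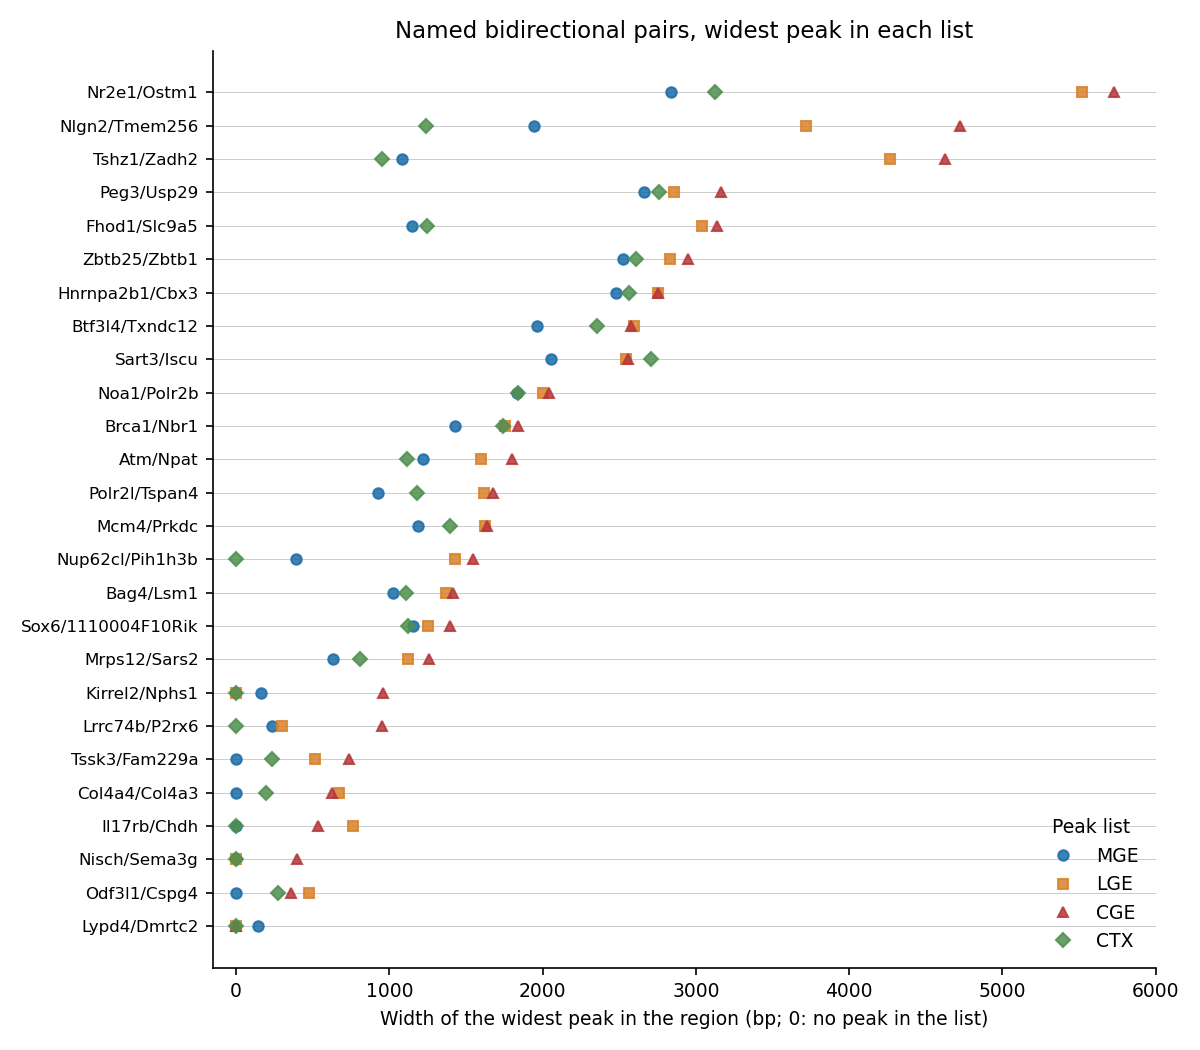
Width of the widest peak (bp, x axis; 0 where the list has no peak) in each of the 4 lists (symbols) for the 26 named pairs (y axis), ordered by CGE width. Nr2e1/Ostm1 is widest in every list, from 2837 bp in MGE to 5725 bp in CGE, and the pairs marked in some lists only lie at the bottom with widths under 1000 bp, except Nup62cl/Pih1h3b (1546 bp in CGE).

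Distance itself spanned the whole range allowed. The ends of Bag4 and Lsm1, a chaperone cofactor and an mRNA decay factor, lay 1 bp apart under peaks of 1022, 1369, 1414 and 1110 bp. Those of Btf3l4 and Txndc12 lay 987 bp apart under peaks of 1961, 2599, 2578 and 2357 bp. Bag4/Lsm1 had the higher fold, 9.40 against 4.70 in MGE.

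To see which pairs changed their place between tissues, each of the 692 pairs was ranked by width within each list. The median spread between the highest and the lowest of a pair's 4 percentile ranks was 16.0 points (interquartile range 8.80 to 26.2), and 44 pairs spread over more than 50 points. The pairs with the greatest spread were named after their values were seen. Hist1h2bf/Hist1h2ad had 506, 773, 2871 and 567 bp. Sgce/Peg10, an imprinted pair, had 710, 3262, 3293 and 674 bp. Cdk5/Slc4a2, with a neuronal kinase, had 688, 3148, 3346 and 686 bp, and Nek8/Tlcd1 had 534, 2716, 2224 and 563 bp. In each of these the long value was in CGE or in LGE and CGE. Those lists had the longer peaks throughout, but the ranks were taken within each list. The part of neighbouring peaks called separately in MGE and CTX in these spreads was not tested.

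The 53 pairs with no peak in any list were of several kinds. CpG-rich pairs made up 20 of them, 3.75% of all CpG-rich pairs, and the other 33 were 14.9% of the rest; among controls these shares were 4.53% and 60.1%. At 6 of the 53 the authors' peak numbers skip in all 4 lists and at 1 in some, so these are not described as unmarked. Of the other 46, 16 were CpG-rich. Several belong to tissues other than brain, such as Smyd1/Cd8b1 (a muscle methyltransferase and a T cell receptor partner), Ifit1bl2/Ifit1 (interferon response) and Duox2/Duoxa2 (thyroid peroxide synthesis).

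Others are genes that most cells express. Alyref/Anapc11, an mRNA export factor and a subunit of the anaphase-promoting complex, lay in a peak-free stretch of 154981 bp with 12 protein-coding 5′ ends. Ftsj3/Psmc5, an rRNA methyltransferase and a proteasome subunit, lay in one of 84989 bp, and Rida/Pop1 in one of 224340 bp. These pairs, all CpG-rich, were picked out once their values were known. Over the 53 pairs the median peak-free stretch was 110869 bp, and 27 pairs, 14 of them CpG-rich, lay over 30 kb from the nearest peak of any list. The authors had removed reads in blacklisted regions, and the part of that step in these stretches was not tested.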

How the data were processed

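H3K4me3 CUT&Tag reads had been aligned by the authors to GRCm38/mm10 with Bowtie2, with blacklisted regions and PCR duplicates (Picard) removed. Replicates were merged per tissue with SAMtools and broad peaks called with MACS. The MACS version, threshold and control are not given in the sources used here. Each deposited list has 9 columns. Used were the peak's position, the fold over the caller's background (a ratio, column 7) and its −log10 q, while the deposited score was not used. The lists hold no read counts, so no precision was derived from depth, which by the study's methods differed severalfold between libraries. The lowest −log10 q in the lists was 1.00 to 1.04. Peak numbers skip in each list, with 33 (MGE), 59 (LGE), 64 (CGE) and 31 (CTX) numbers absent, and pairs in such stretches are not analysed here as unmarked.

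Pairs and controls were taken from GENCODE M21 on chromosomes 1 to 19, X and Y. A region was marked when a peak shared at least 1 bp with it. The widest peak was measured over its full length, covered bases within the region. Sequence came from the NCBI GRCm38.p6 genome and was read with samtools 1.23.1. Python 3.11.15, numpy 2.4.6 and pandas 2.3.3 were used, and the scripts were tested on simulated data. No test was run, because each tissue had 1 list.

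Named pairs were textbook bidirectional or RNA polymerase II pairs, pairs with a forebrain patterning factor, those marked in some lists only, the 3 widest per list, the 3 most covered in all lists, and the closest and the most distant pair. Members and gene lists were chosen with earlier results of these data known. Alternatives were 11 planned ones and 3 added after seeing the data. Some items chosen by these rules are not reported here.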

Additional observations from a re-analysis of the deposited data

How the results depend on the processing

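No paired analysis was possible because replicates had been merged before peaks were called, and for the same reason no replicate could be left out. The 14 alternatives, 3 of them chosen after seeing the data, were applied to the main values that each bears on, and 3 of the 14 to the widths at named pairs. Of 240 recomputed main values, 190 stayed within the reported interval or band, 49 left it without reversing and 1 changed direction. That one was the share of marked CpG-rich pairs with more cover than the control median in MGE (48.05%), with 50% in CTX, 64.26% in LGE and 66.02% in CGE. Among CpG-rich promoters the difference in share marked was 2.733 (MGE), 1.715 (LGE), 1.182 (CGE) and 2.655 (CTX) points. There the share wider than the control median was 54.69%, 58.2%, 59.57% and 57.06%, and that with both ends under 1 peak 98.05%, 98.05%, 98.44% and 99.41%. With lists cut to 17284 peaks by fold, the difference was 40.45 (MGE) and 40.3 (CTX) points. With at least 500 bases covered it was 42.77 (MGE), 39.44 (LGE) and 42.88 (CTX), the share wider 60.88% (MGE) and 64.96% (CTX), and the share with more cover 55% (MGE) and 57.62% (CTX). Flanks of 500 bp gave 77.52%, 82.93%, 82.29% and 78.79% with more cover, and control windows 129 bp longer upstream 68.82%, 79.37%, 81.57% and 71.37%. Without receptor genes the difference was 33.82, 33.26, 33.2 and 34.12 points. Without controls that have a gene on the other strand it was 42.44, 41.97, 41.88 and 42.8 points, the share wider 70.98% (MGE), 73.35% (LGE) and 72.29% (CGE), and the share with more cover 65.95% (MGE) and 67.77% (CTX). For ends at most 300 bp apart, both ends were under 1 peak in 96.67%, 96.86%, 97.38% and 97.55%. The cause of these shifts was not tested. A −log10 q of at least 2, joining peaks under 1 kb apart, and leaving out histone genes, number skips, repeated loci or overlapping head-to-head controls kept each main value within its interval or band. At the named pairs, 5 of 104 peak widths were lost with the stricter q, 14 in lists of equal size, and 6 grew on joining.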
